A study of Mus musculus with 4 samples.

Results

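Macrophages that live in bone marrow engulf dying cells and expelled erythroid nuclei, and they are the main local source of complement C1q. Transcripts of 10 genes known from these cells were measured in mouse Lin-Kit+ bone-marrow cells with and without Asxl1: the C1q chain genes C1qa, C1qb and C1qc, the engulfment receptor genes Axl and Mertk, the scavenger and lectin receptor genes Cd163 and Mrc1, the lysosomal gene Cd68, the F4/80 gene Emr1 and the adhesion gene Vcam1. They were chosen by name, as loci whose name holds one of these symbols, and all 10 were found among 17956 single loci. None was merged with another gene, none overlapped another single locus of the table, and all 10 passed the filter on low values.

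The cells came from C57BL/6 mice. Lin-Kit+ cells lack the surface markers of mature blood lineages and carry the Kit receptor, so they hold stem and progenitor cells, and each library was made from 2000000 of them. The wild-type (WT) group and the Asxl1-/- (KO) group had 2 libraries each. The labels give no age, no further allele, no treatment, no design of the knockout allele and no statement that the replicates were separate animals, and p-values measure the spread between these libraries, their sex included. Depth, as recovered reads per library, was 46597871 and 49764454 for WT against 83586916 and 76688583 for KO, so the KO libraries were deeper. Asxl1 was at 9742 and 9472 in WT and at 146 and 135 in KO on the deposited scale, in keeping with the genotype labels. Xist was high in replicate 1 of both genotypes (103006 and 89290, against 2123 and 147 in replicate 2), and the Y-linked Eif2s3y was high in replicate 2, so the sex of the cells differed within each genotype and the replicates were not repeats of 1 animal.

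C1q is the recognition unit of the classical complement pathway. Its A, B and C chains assemble in equal number, bind antibody or dying cells, and tag them for uptake. Axl and Mertk are receptor tyrosine kinases that bind the bridging proteins Gas6 and Protein S on dying cells, CD163 takes up haemoglobin bound to haptoglobin, and the mannose receptor Mrc1 takes up glycoproteins. Most of these genes are not exclusive to macrophages: Emr1 is also expressed by eosinophils, Vcam1 by stroma and endothelium, and Axl by other cells, where it responds to interferon.

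In KO, C1qa, C1qb, Cd163 and Axl fell and Emr1 rose. Levels of C1qa and C1qb in KO were about 0.51 times those in WT, Cd163 was at 0.660 times and Axl at 0.647 times, while Emr1 was at 2.01 times the WT mean. C1qc, Mrc1, Mertk, Cd68 and Vcam1 did not pass the threshold. So 5 of the 10 genes were called, 1 higher and 4 lower, beside 20.9% of all 13764 tested loci called in either direction, 11.9% called higher and 8.97% called lower. The median log2 fold change of the 10 genes was -0.60, and that of all tested loci was -0.0062. The KO pair was entirely above or entirely below the WT pair for 7 of the 10 genes and for 66.1% of all tested loci, so separation of the groups by itself was common in this table. In a bulk sample, fewer cells of a type and less RNA per cell cannot be told apart.

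These values are normalised read counts as deposited, and fold changes are log2 differences of KO minus WT on the log2(value + 1) scale with their SE, from limma, with p-values adjusted over all tested loci. The call of Emr1 was kept when any 1 library was left out. The 4 lower calls were all lost without WT replicate 1 and without WT replicate 2, where 1 of the 10 genes was called, and such fits take their spread from the KO pair and from the trend over all loci.

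**Figure D1:**
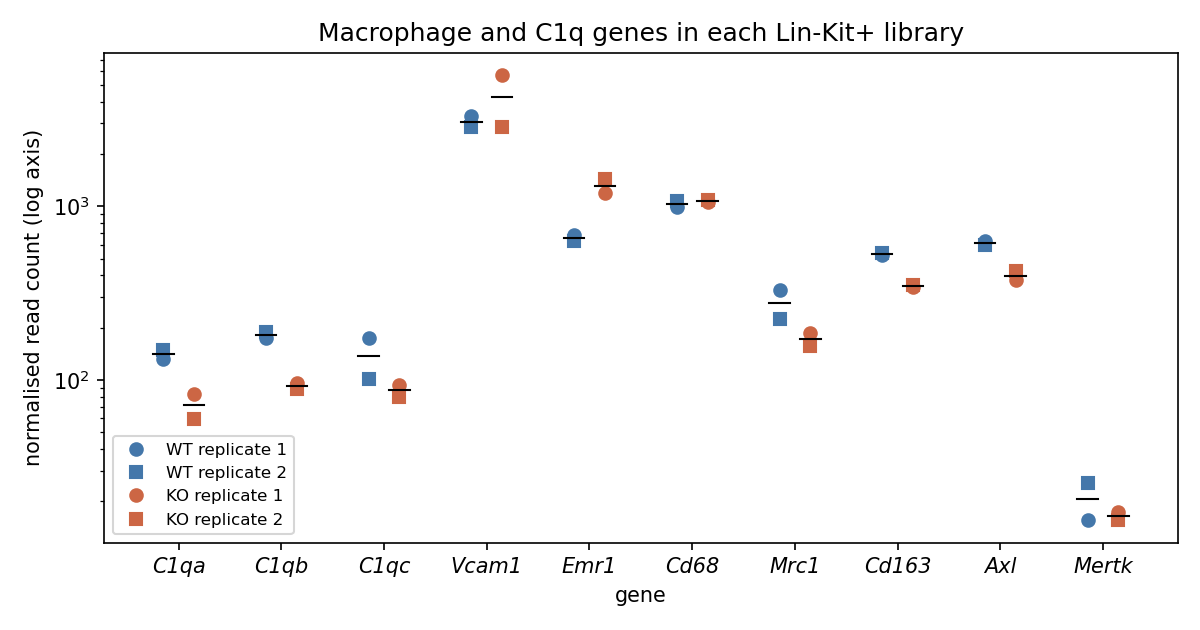
Normalised read count (log axis) of each gene in the 2 WT libraries (blue) and the 2 KO libraries (orange), with circles for replicate 1, squares for replicate 2 and short lines for group means. Emr1 is higher in both KO libraries, C1qa, C1qb, Cd163 and Axl are lower in both, and Vcam1 is high in KO replicate 1 only.

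The genes had few reads. Together they took 0.0115% and 0.0105% of the reads of the WT libraries and 0.0144% and 0.0104% of those of the KO libraries. Their recovered reads per library ran from 12 for Mertk to 7503 for Vcam1. Other genes of resident macrophages, here named after their values were seen, ranged widely: Mpeg1 had 10289 to 16010 reads per library, Vsig4 had 1 and 2 reads in WT and 4 and 3 in KO, and Folr2 had 3 and 1 reads in WT and 3 and 1 in KO. A list of 18 macrophage markers included all of the 10 genes except Axl, and none of the 18 was at 0 in all libraries. Of the 16 tested, 2 rose and 5 fell, beside 11.9% and 8.97% of all loci. The lower calls rested on having both WT libraries. Kit itself, in a locus merged with AK047175 and also named after its values were seen, was at 17739 and 16149 in WT and at 18483 and 18889 in KO. Of 12 markers of the progenitor gate 0 rose and 5 fell, with a median of -0.30, beside 11.9% and 8.97% of all loci. Among these markers are the granule genes Mpo, Elane, Prtn3 and Ctsg beside Kit. The sum of the 12 markers, of which Kit was a small part, went from 827039 and 768092 to 716126 and 621955. With WT replicate 1 left out 2 fell, and with WT replicate 2 left out 3 fell. DESeq2, or leaving out KO replicate 1, gave 8, and upper-quartile or common-total scaling gave 10.

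The C1q genes lie side by side on chromosome 4. C1qb spans 136436060 to 136442092, C1qc 136445716 to 136448829 and C1qa 136451830 to 136454759 (mm9, whole locus). These neighbours were all lower in both KO libraries, although C1qc was not called. Any part of their upstream sequence in this was not tested. For C1qb and C1qc, the 250 bases before the RefSeq start on GRCm38.p6 are shown. Both are on the minus strand and are written 5′ to 3′ in the direction of transcription. Capitals mark matches, on either strand, to GAGGAA, the core letters bound by the macrophage factor PU.1, or to TGCTGA, a half-site of MAF-type factors.
C1qb, chr4:136886201-136886450, minus strand: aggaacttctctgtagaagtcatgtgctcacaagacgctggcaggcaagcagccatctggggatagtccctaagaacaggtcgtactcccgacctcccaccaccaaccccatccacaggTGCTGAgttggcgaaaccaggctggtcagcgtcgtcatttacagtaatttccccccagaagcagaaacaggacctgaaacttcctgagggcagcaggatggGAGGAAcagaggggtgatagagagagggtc
C1qc, chr4:136892915-136893164, minus strand: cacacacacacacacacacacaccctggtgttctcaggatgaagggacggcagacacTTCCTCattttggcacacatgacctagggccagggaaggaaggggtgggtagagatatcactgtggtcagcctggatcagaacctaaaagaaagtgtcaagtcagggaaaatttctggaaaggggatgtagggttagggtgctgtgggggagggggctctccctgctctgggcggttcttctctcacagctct

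In C1qb the GAGGAA match begins 30 bases before the start and the TGCTGA match 131 bases before it, and the matches do not overlap. In C1qc the only match is GAGGAA on the opposite strand, 193 bases before the start. Of the 7 genes with an entry in the promoter table, 5 held GAGGAA (Mrc1, C1qb, C1qc, Axl and Cd68) and 1 held TGCTGA (C1qb). Over all 32851 promoter windows of the same length the shares were 23.3% for GAGGAA and 16.1% for TGCTGA. Genes with GAGGAA include some that were called lower (C1qb and Axl) and some that were not called (C1qc, Mrc1 and Cd68). Those with an entry but no GAGGAA were Cd163, which was called lower, and Mertk, which was not called.

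C1qa, the A chain gene, was at 132 and 149 in WT and at 83.4 and 59.4 in KO. The KO libraries were both below the WT libraries. The log2 fold change was -0.98 ± 0.26 (adjusted p = 0.0468), close to the threshold. It missed the threshold with edgeR and TMM (adjusted p = 0.0506), with edgeR and RLE and with limma-voom (both 0.0515), with no filter (0.066) and without KO replicate 2 (-0.74, adjusted p = 0.0962), as well as without WT replicate 1 (-1.07, 0.155) or WT replicate 2 (-0.90, 0.202).

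C1qb, the B chain gene, was at 175 and 189 in WT and at 95.5 and 89.1 in KO. The libraries of each genotype lay close together and the groups were well apart. Its log2 fold change was -0.97 ± 0.20 (adjusted p = 0.0232). The adjusted p was 0.11 without WT replicate 1 and 0.133 without WT replicate 2, with fold changes of -1.03 and -0.92.

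C1qc, the C chain gene, was at 174 and 101 in WT and at 94.0 and 80.0 in KO. Here the WT libraries differed from each other more than WT replicate 2 differed from KO replicate 1. The log2 fold change of -0.61 ± 0.31 (95% interval -1.37 to 0.16, adjusted p = 0.213) did not pass the threshold, and it ranged from -0.99 without WT replicate 2 to -0.22 without WT replicate 1. The exact Poisson interval of the WT values, which covers counting error only, was 145 to 206 in replicate 1 and 80.6 to 125 in replicate 2, so the gap between them was larger than counting error. C1qc was therefore lower in both KO libraries, but not beyond the spread of the WT libraries.

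Summed over the 3 chains, C1q was at 480 and 439 in WT and at 273 and 229 in KO. The mean went from 460 ± 29.3 to 251 ± 31.3 (SD, n = 2), which is 0.545 times the WT level, and the log2 difference was -0.81 between the libraries numbered 1 and -0.94 between those numbered 2. Behind these sums were 371 and 360 reads for WT against 360 and 277 for KO, the deeper libraries. Per kilobase of transcript the 3 chain genes took similar shares of the sum. C1qa had 27.8% to 35.7% of it over the 4 libraries, C1qb 35.7% to 43.3% and C1qc 21.0% to 33.4%, with the lowest C1qc share in WT replicate 2. Lengths are those of the longest protein-coding transcript in GENCODE M21: 1040 bases for C1qa, 1088 for C1qb and 1203 for C1qc.

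**Figure D2:**
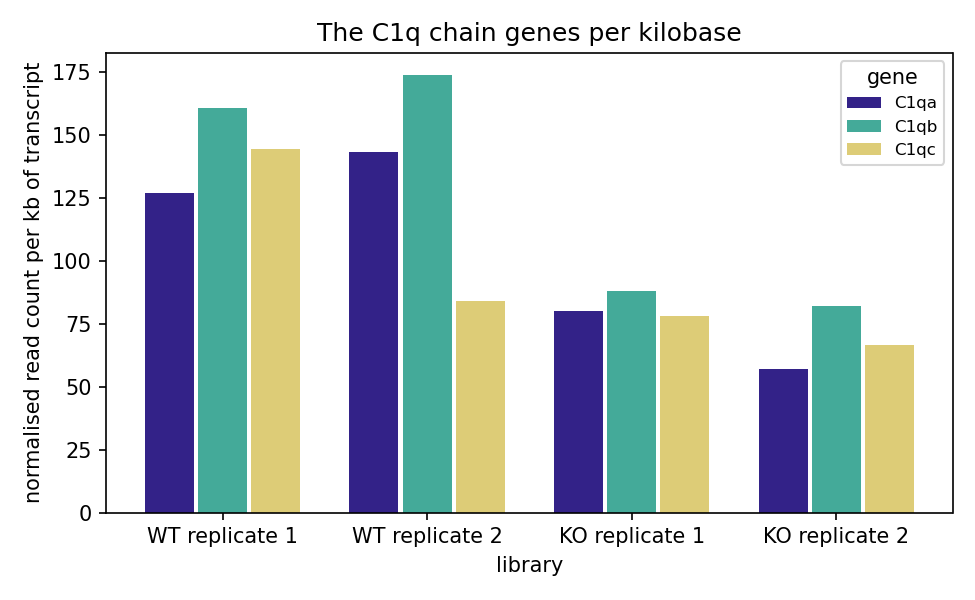
Normalised read count per kilobase of transcript for C1qa, C1qb and C1qc in each of the 4 libraries (bars). All bars of the KO libraries are below 90, C1qb is the tallest bar in every library, and C1qc in WT replicate 2 (84.1) is close to the KO bars.

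The engulfment receptor gene Axl (chromosome 7, 26541518 to 26573752, mm9) was at 633 and 599 in WT and at 375 and 422 in KO. Both KO libraries were below both WT libraries. Its log2 fold change was -0.63 ± 0.13 (adjusted p = 0.022). Between the libraries numbered 1 the difference was -0.75, and between those numbered 2 it was -0.51. Without WT replicate 1 it was -0.59 (adjusted p = 0.141) and without WT replicate 2 it was -0.67 (adjusted p = 0.0973).

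Interferon-stimulated genes fell in the same KO libraries. Of 27 tested genes of that list 24 fell and 1 rose (0 without WT replicate 1), none was at 0, and the summed value went from 68700 and 70681 in WT to 35661 and 32617 in KO. Their part in the level of Axl was not tested. The genes of that list with the largest falls were Ifi44 (-3.42), Ifit1 (-3.33) and Oasl2 (-2.73). The share of that list called lower was 24 of 27, beside 8.97% of all loci.

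Mertk (chromosome 2, 128524732 to 128627924, mm9), the receptor of the same family that macrophages use most for dying cells, was near the lower limit of the measurement. It had 12 and 21 reads in WT and 23 and 19 in KO, which are values of 15.5 and 25.6 in WT and 17.4 and 15.7 in KO. The groups overlapped, and the log2 fold change was -0.26 ± 0.45 (95% interval -1.35 to 0.83, adjusted p = 0.709). A change of 1.5-fold in either direction lies inside that interval and was not excluded. Mertk lies 24.5 Mb from Asxl1 on the same chromosome.

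The ligand Gas6 and the third receptor Tyro3 were named after their values were seen, because they act with Axl and Mertk. Gas6 was at 107 and 126 in WT and at 68.2 and 33.8 in KO (-1.26 ± 0.37, adjusted p = 0.0645), and Tyro3 was at 71.2 and 78.1 in WT and at 25.01 and 52.8 in KO (adjusted p = 0.129). Pros1, which encodes Protein S, was at 455 and 400 in WT and at 395 and 352 in KO (adjusted p = 0.373). None of these passed the threshold.

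Among the other genes of engulfment, 7 of 38 tested rose and 3 fell, with a median of 0.0038. Over all loci 11.9% rose and 8.97% fell. The genes that rose included Cd300lf, a receptor for lipids of dying cells (1.10 ± 0.08), the locus Anxa1+AK170612 with the annexin gene Anxa1 (1.07 ± 0.05), the cholesterol exporter gene Abca1 (0.87 ± 0.17), Itgb3 (0.67 ± 0.13) and the adaptor gene Tyrobp (0.62 ± 0.05). The genes that fell were the channel gene Panx1 (-0.66 ± 0.10), the scavenger receptor Stab1 in a merged locus (-0.39 ± 0.06) and Mfge8, which bridges dying cells to integrins (-0.36 ± 0.10). Without WT replicate 1 the counts were 4 higher and 1 lower, without WT replicate 2 the lower count was 0, and without KO replicate 1 it was 6. Upper-quartile and common-total scaling gave 5 lower genes.

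The haemoglobin scavenger receptor gene Cd163 (chromosome 6, 124254668 to 124280545, mm9) was at 522 and 535 in WT and at 344 and 354 in KO. Replicates differed little within each genotype. The log2 fold change was -0.60 ± 0.12 (adjusted p = 0.0231), and same-numbered libraries differed by -0.60 for both numbers. The adjusted p was 0.128 without WT replicate 1 and 0.136 without WT replicate 2, while the fold change stayed between -0.62 and -0.58 whichever library was left out.

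The mannose receptor gene Mrc1 (chromosome 2, 14151040 to 14253650, mm9) was at 332 and 224 in WT and at 186 and 158 in KO. Both KO libraries were lower, but the WT libraries were far apart. Its log2 fold change of -0.67 ± 0.24 (95% interval -1.25 to -0.09) had an unadjusted p of 0.0303 in limma and an adjusted p of 0.0961, so it did not pass the threshold. Without WT replicate 1 the fold change was -0.39 and without WT replicate 2 it was -0.95.

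A list of other scavenger and lectin receptor genes also held Hp, Hpx, Sirpa and Cd47, which are not such receptors. Of its 15 tested genes, 5 rose and 1 fell, with a median of 0.21, beside 11.9% of all loci higher and 8.97% lower. Another 9 of the 24 matched genes were too low to be tested. The genes that rose were Ly75, a lectin receptor related to Mrc1, in a locus merged with AK050909 (0.78 ± 0.07), the receptor for oxidised lipoprotein Olr1 (0.68 ± 0.09), Clec7a, which binds fungal glucan (0.64 ± 0.09), the haptoglobin gene Hp (0.55 ± 0.07) and Sirpa, which binds CD47 (0.50 ± 0.06). The scavenger receptor gene Scarf1 fell from 519 and 435 to 216 and 166 (-1.32 ± 0.19, adjusted p = 0.0084). Scarf1 was not called without WT replicate 1, so the lower count was then 0, and it was 2 without KO replicate 1.

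Cd68 (chromosome 11, 69477872 to 69479564, mm9) encodes a lysosomal membrane protein of macrophages and other phagocytes. It was at 997 and 1078 in WT and at 1062 and 1091 in KO. The groups overlapped, and the log2 fold change was 0.05 ± 0.09 (95% interval -0.17 to 0.28, adjusted p = 0.705). The upper end of that interval is a 1.21-fold higher level.

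Of 29 tested lysosome genes 3 rose and 6 fell, with a median of -0.017, beside 11.9% and 8.97% of all loci. Those that rose were the galactosidase gene Gla (0.69 ± 0.07), the cathepsin gene Ctsh (0.53 ± 0.06) and Cd63 (0.33 ± 0.07). Those with the largest falls were Atp6v0d2, a proton pump subunit of macrophages and osteoclasts (-1.27 ± 0.34), the protease gene Lgmn (-0.55 ± 0.11), Ctsc (-0.40 ± 0.08), Ctss (-0.34 ± 0.09) and Glb1 in a merged locus (-0.30 ± 0.06). The lower count was 0 without WT replicate 1 or WT replicate 2. The higher count was 5 with edgeR and without KO replicate 2, and 6 with DESeq2.

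Emr1 (chromosome 17, 57498108 to 57622952, mm9), now named Adgre1, encodes F4/80, an adhesion G-protein receptor used to stain mouse macrophages. It was at 681 and 628 in WT and at 1198 and 1436 in KO. Both KO libraries were above both WT libraries, by more than the spread within either genotype. The mean went from 655 ± 37.6 to 1317 ± 168 (SD, n = 2), with a log2 fold change of 1.003 ± 0.12 (adjusted p = 0.00517). The difference was 0.81 between the libraries numbered 1 and 1.19 between those numbered 2. The call held under all 15 alternative settings, with fold changes of 0.87 to 1.13.

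Emr1 moved opposite to C1qa, C1qb, Cd163 and Axl, and many markers of eosinophils and neutrophils were higher in the same libraries. Of 12 eosinophil markers 7 rose and 0 fell, none was at 0, and the summed value was 211613 and 219650 in WT against 388043 and 389998 in KO. The largest rises were in the lipoxygenase gene Alox15 (1.78), the ribonuclease locus Ear2+Ear3 (1.30) and the granule gene Prg2 (1.14), and 4 of the markers were called higher without WT replicate 1 and 5 without WT replicate 2, against 10 without KO replicate 1 and 9 without KO replicate 2. Of 18 mature neutrophil markers 16 rose and 0 fell, none was at 0, and their sum went from 1118235 and 1245209 to 2231241 and 2091070. Over all loci 11.9% rose and 8.97% fell. The part of eosinophils and neutrophils in the level of Emr1 was not tested.

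Monocyte markers went both ways in these libraries. Of 26 tested, 7 rose and 6 fell, with a median of -0.11, beside 11.9% and 8.97% of all loci. None was at 0, and the summed value was 172905 and 202062 in WT against 259623 and 246543 in KO. Cd14 (1.66), Nr4a1 (1.43) and Lgals3 (1.12) were the largest rises, while Cx3cr1 (-0.91), Ifi204 in a merged locus with Mnda (-0.85) and Ms4a6c (-0.63) were the largest falls. With either WT replicate left out 2 markers were called lower, against 10 with KO replicate 2 left out. Without WT replicate 1, 4 were called higher.

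Of 10 adhesion G-protein receptors related to Emr1, 2 rose and 3 fell, with a median of -0.05, beside 11.9% and 8.97% of all loci. Emr4, the nearest relative of Emr1 in the list, rose from 256 and 366 to 625 and 906 (1.29 ± 0.24, adjusted p = 0.0181), and Cd97, in a locus merged with Ddx39, rose by 0.29. Eltd1 (-0.66 ± 0.05), Gpr125 (-0.58 ± 0.14) and Gpr56 (-0.44 ± 0.06) fell. Neither Emr4 nor Cd97 was called without WT replicate 1.

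Vcam1 (chromosome 3, 115812937 to 115832606, mm9), which encodes an adhesion molecule that binds the integrin alpha-4 beta-1 of blood progenitors, was the gene of the 10 on which the KO libraries differed most. It was at 3303 and 2851 in WT and at 5687 and 2848 in KO. KO replicate 1 stood above the other libraries, and KO replicate 2 was level with WT replicate 2. The log2 fold change was 0.39 ± 0.30 (95% interval -0.34 to 1.12, adjusted p = 0.385), and the direction rested on 1 library: it was -0.11 without KO replicate 1 (adjusted p = 0.48) and 0.89 without KO replicate 2 (adjusted p = 0.00183).

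Stroma and endothelium also express Vcam1, and their part in its level was not tested. The summed value of their 23 markers was 17600 and 17947 in WT against 15573 and 16049 in KO, with none at 0. Of the 19 tested, 0 rose and 4 fell, beside 11.9% and 8.97% of all loci. Those with the largest falls were Emcn (-1.76), Tie1 (-1.14) and Plvap (-0.98), and the cells that held these transcripts were not identified. The lower count was 1 without WT replicate 1, 0 without WT replicate 2 and 8 without KO replicate 1, where 1 marker was called higher.

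Of 13 tested partners and relatives of Vcam1, 1 rose and 1 fell, with a median of -0.02, beside 11.9% and 8.97% of all loci. Ezr, which links membrane proteins to actin, rose by 0.27, and the adhesion gene Icam2 changed by -0.33 ± 0.07. The integrin subunit gene Itga4, named after its values were seen, was at 39746 and 38739 in WT and at 37407 and 32509 in KO (adjusted p = 0.142), and its partner Itgb1 was at 15453 and 15412 in WT and at 16449 and 16238 in KO (adjusted p = 0.213). The higher count was 0 without WT replicate 1, 2 with edgeR and 3 with DESeq2, and no gene of the list was lower when either WT replicate was left out, against 2 without KO replicate 1.

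**Figure D3:**
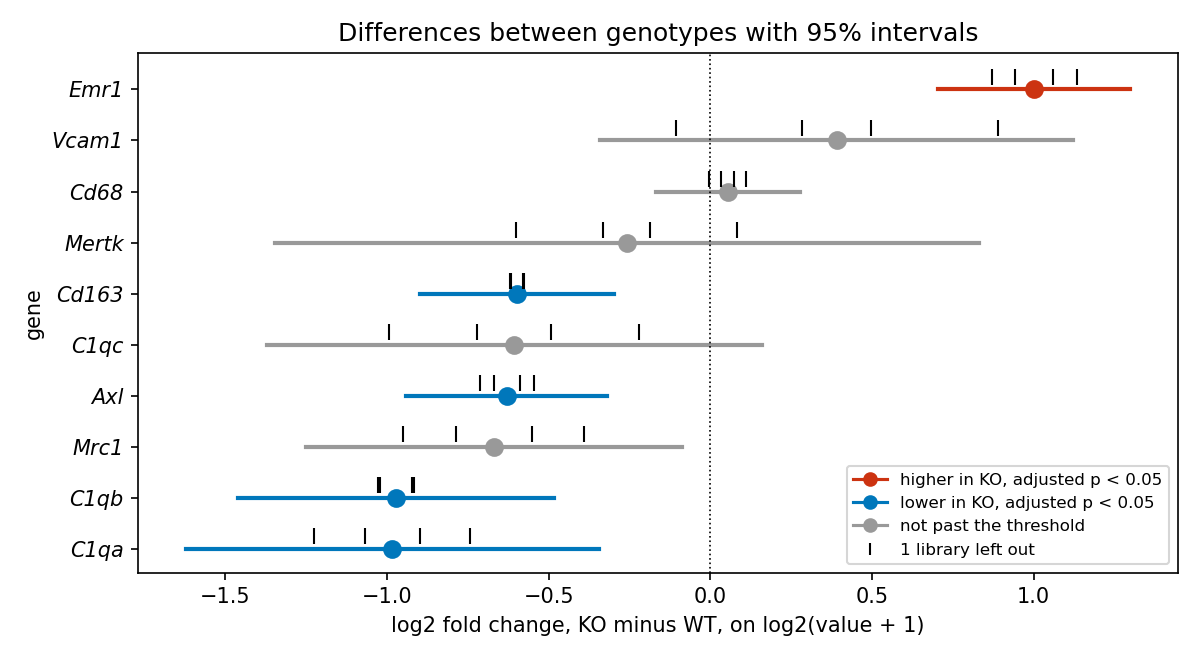
Log2 fold change of KO minus WT for each gene (points) with its 95% interval from limma (bars), red for higher and blue for lower past an adjusted p of 0.05, grey otherwise, and black ticks for the value with 1 library left out. The ticks of Emr1 stay between 0.87 and 1.13, those of Cd163 between -0.62 and -0.58, and those of Vcam1 run from -0.11 to 0.89.

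Per kilobase of transcript, the order of levels in WT was Vcam1 (887), Cd68 (844), Emr1 (202), C1qb (167), Axl (144), C1qa (135), Cd163 (119), C1qc (114), Mrc1 (51.7) and Mertk (4.78). Vcam1 and Cd68 overlapped in their libraries, as did Axl and C1qa, and Cd163 and C1qc. C1qc, whose WT libraries were far apart, also overlapped C1qa and Axl. In KO the order was Vcam1 (1230), Cd68 (875), Emr1 (407), Axl (93.4), C1qb (84.8), Cd163 (78.6), C1qc (72.3), C1qa (68.6), Mrc1 (31.9) and Mertk (3.85). Vcam1 and Cd68 overlapped again, and so did Cd163, C1qc and C1qa. Emr1 held the same place in both orders, and its level per kilobase was 1.21 times that of C1qb in WT and 4.79 times in KO.

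The loci whose pattern over the 4 libraries was most like that of Emr1 were P2rx1, an ATP-gated channel gene, Fpr2+Fpr3, Krtcap3, Cd300lf and Lrg1. Their distances, taken as the Euclidean distance between log2(value + 1) centred over the libraries, were 0.033 to 0.137 among 9791 loci. For C1qb they were Col4a1, Klhl3, Zfp764, Hnf4a and Cbx6+Nptxr+Npcd, at 0.057 to 0.098. Among the 10 genes the nearest to C1qb were C1qa (0.27), Cd163 (0.39) and Axl (0.41), and the farthest was Emr1 (2.00). With 4 libraries such likeness is common: 60 loci lay within 0.25 of Emr1 and 81 within 0.25 of C1qb.

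Genes that describe resident macrophages more widely were also divided. Of 18 tested, 2 rose and 4 fell, with a median of -0.32, beside 11.9% and 8.97% of all loci. The genes that fell were Siglec1, a sialic acid receptor of these macrophages that also responds to interferon (82.9 and 107 to 32.6 and 38.0, -1.40 ± 0.29), Sdc3 (-0.98 ± 0.17), Fcna in a merged locus (-0.80 ± 0.21) and the transferrin gene Trf (-0.52 ± 0.10). Slc40a1, the iron exporter ferroportin, rose from 6894 and 7704 to 13236 and 11367 (0.75 ± 0.09) and Pilra in a locus merged with Zcwpw1 by 0.68. The level of Slc40a1 was far above that of Siglec1, and the cells that held these transcripts were not identified. The lower count was 2 without WT replicate 1 and 0 without WT replicate 2.

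Downstream and beside C1q, the complement list had 7 of 26 tested genes higher and 2 lower, with a median of 0.23, beside 11.9% and 8.97% of all loci. The receptor gene C5ar1 rose by 1.12 ± 0.08, the regulator gene Cd55 by 0.81 ± 0.07, the complement receptor subunits Itgb2 and Itgam by 0.78 ± 0.06 and 0.77 ± 0.06, and Cd59a, close to the threshold, by 0.73 ± 0.20. The central component C3, named after its values were seen, rose as well (0.49 ± 0.06). Cd93, once described as a C1q receptor, fell by 0.70 and Calr, which also binds C1q, fell by 0.55. The lower count was 4 without KO replicate 2. C1ra, a protease that partners C1q, was at 289 and 276 in WT and at 334 and 290 in KO (adjusted p = 0.55), and is named after its values were seen.

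Of 26 tested growth and transcription factor genes that macrophages use, though not they alone, 11 rose and 2 fell. Their median was 0.27, and over all loci 11.9% rose and 8.97% fell. The largest rises were in Nr4a1 (1.43 ± 0.11), Egr1 (1.36 ± 0.04), Bhlhe40 in a merged locus (1.28 ± 0.12), Egr2 (1.24 ± 0.26) and Klf2 (1.16 ± 0.31). Nr4a1 was also counted among the monocyte markers. Csf1r, the receptor for macrophage colony-stimulating factor, fell from 4887 and 4564 to 3586 and 3761 (-0.36 ± 0.06), and Tfec in a merged locus changed by -0.29 ± 0.07. Of the factors whose letters were searched above, Sfpi1, which encodes PU.1, rose by 0.40 ± 0.06 and Maf by 0.65 ± 0.11. Both were named after their values were seen. The higher count was 6 without WT replicate 1 and 5 without WT replicate 2, and the lower count was 0 without either and 1 with no filter.

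**Figure D4:**
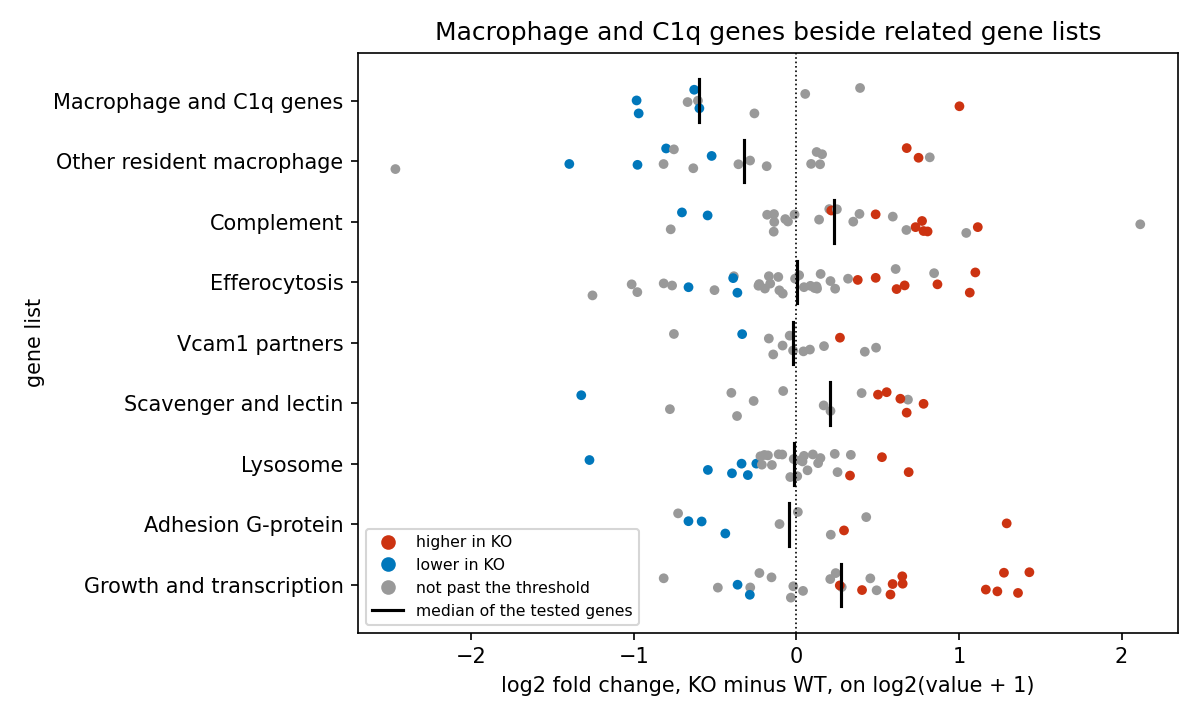
Log2 fold change of KO minus WT of each tested gene (points) in the macrophage and C1q group and in 8 related lists, with red for higher and blue for lower past an adjusted p of 0.05 and black lines for medians. The median of the macrophage and C1q group is -0.60, that of the wider resident macrophage list -0.32, and those of the complement and growth factor lists are 0.23 and 0.27.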

How the data were processed

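Reads were aligned with STAR 2.3.1t to mm9, per the submitters' processing notes. Which counter, annotation, strand setting and scaling tool followed is not given in the sources used here. Each locus has 1 deposited signal value per library, which the authors made by multiplying read counts by 1 factor per library. All values (100%) were whole multiples of 1 step per library within 0.001 of a read, and dividing by the step recovered the reads. A count of 0 allows up to 3 reads. Rows joining neighbouring loci (4893) held 0.0619% to 0.0676% of reads and were left out. Values were tested with limma 3.58.1 (R 4.3.3, mean-variance trend, log2(value + 1), genotype only) over 13764 single loci that reached 10 in 2 or more libraries, with Benjamini-Hochberg adjustment and a threshold of 0.05. The script was tested on simulated data. On the recovered reads the edgeR 4.0.16 quasi-likelihood test called 2839 loci, and DESeq2 1.42.0 and limma-voom were further alternatives.

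The genes and lists were chosen with earlier results of these data known. All 10 genes are named. From each related list the text takes up to 5 called genes in each direction with the largest change. From most marker lists it takes up to 3 in each direction. Others are identified where they appear. Nearest patterns were sought among loci with a mean of at least 50, without clone and predicted names. Older symbols were matched by hand-listed synonyms, and 9 symbols of the lists matched no locus. Promoter sequences are RefSeq's on GRCm38.p6, with entries for 7 of the 10 genes (not C1qa, Vcam1 and Emr1). Coordinates of loci are those of the deposited table.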

Additional observations from a re-analysis of the deposited data

How the results depend on the processing

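Leaving out 1 library at a time gave 869 to 3233 called loci, 603 to 1714 higher and 266 to 1542 lower, with the low values coming without WT replicate 1. Of the 10 genes 1 to 5 were then called, 1 to 2 higher and 0 to 4 lower. Upper-quartile and common-total scaling gave 1901 and 2060 lower loci, and the share of calls that were higher went from 57.0% to 42.6% and 39.2%, but the fold changes of the 10 genes moved by at most 0.065. Signs changed only for genes that did not pass the threshold: Vcam1 (-0.11 to 0.89 with 1 library left out, negative without KO replicate 1), Cd68 (-0.011 with common-total scaling, and -0.0025 to 0.11 with 1 library left out, negative without WT replicate 1) and Mertk (-0.60 to 0.084, positive without WT replicate 2). C1qb, Cd163, Axl and Emr1 were called under all 11 alternatives that kept every library, and C1qa under 7 of them. The labels give both genotypes replicates 1 and 2 without saying that a number marks a shared animal or day. The number did match sex, with Xist high in replicate 1 of both genotypes and Eif2s3y high in replicate 2. Same-numbered libraries deviated together (r = 0.25 over loci, 0.11 without the X and Y chromosomes). The replicate block therefore also adjusts for sex. With it 3439 loci and 6 of the 10 genes were called by limma, the added one being Mrc1 (adjusted p = 0.0472). The block gave 11 higher eosinophil markers, 6 higher lysosome genes and 4 lower growth and transcription factor genes. Of 510 counts for the lists 448 stayed within 1.5 times, and 43 of the 62 others came from leaving out a library. The number of reads limited Mertk most, and a filter of 50 removed it. Causes were not tested.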

Other observations

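Clec4f, a lectin gene known from liver macrophages, was at 167 and 154 in WT and at 11.4 and 67.7 in KO (log2 fold change -2.47, limma adjusted p = 0.067), so both KO libraries were lower but far apart. C1s, the second protease that partners C1q, had 13 and 1 reads in WT and 6 and 5 in KO and was too low to be tested. Both were named after their values were seen.

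Dendritic cell markers had 3 of 18 tested genes lower and 0 higher, beside 8.97% and 11.9% of all loci. The median log2 fold change of these 18 markers was positive (0.17). Their sum went from 27882 and 31075 to 23840 and 29625. The largest falls were in the interferon-inducible Bst2 (-1.50), Flt3 (-0.61) and Tcf4 (-0.30). With either WT replicate left out 1 marker was called lower, and without KO replicate 1 4 were called higher. Of 12 genes listed as markers of the lineages that the sort removes, 2 rose and 3 fell, with a median of -0.63. Over all loci 11.9% rose and 8.97% fell. The genes that rose were Itgam and Ptprc, and the value of Ptprc does not separate its transcript forms. Those with the largest falls were Cd4 (-1.54) and Cd79a (-0.86). Without WT replicate 1 the list had 1 marker higher and 0 lower, and without WT replicate 2 1 was lower.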
